A study of Mus musculus with 20 samples.

Results

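The insulin-like growth factor (IGF) system was followed here through 10 genes, all of which were found among the 19463 genes of the whole-brain RNA-seq table. They were chosen by name, as the ligands Igf1 and Igf2, the receptors Igf1r and Igf2r, the binding proteins Igfbp2, Igfbp3, Igfbp4 and Igfbp5, and the Igf2 mRNA-binding proteins Igf2bp2 and Igf2bp3. RNA came from whole brains of 20 male mice on the C57BL/6J background, in 4 groups of 5. Katnal2-KO mice carried a homozygous deletion of exon 3 of Katnal2, a microtubule-regulating gene linked to autism, and were sampled at 3 weeks (P21) or 10 weeks (P70). WT mice of the same ages were the controls. The targeted allele came from 1 embryonic stem cell source and the deletion was made in early embryos with a cell-permeable Cre, so it was not limited to a cell type. The questions were how the IGF genes differed between the KO and WT brains at each age, and how they changed between P21 and P70.

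IGF1 and IGF2 are secreted growth factors that promote the growth, survival and differentiation of neural cells and the formation of myelin. Both signal through the tyrosine kinase receptor IGF1R, whereas IGF2R takes up IGF2 and sends it to lysosomes. IGF binding proteins hold the ligands in extracellular fluid and tissue matrix and set how much reaches the receptors. In the adult brain, Igf2 is known for its expression in the leptomeninges and choroid plexus.

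The deposited values were normalized counts, which summed to 27310523 to 28423042 per mouse, from roughly 25900000 to 35800000 assigned reads at P21 and 23500000 to 26800000 at P70. Katnal2 in the KO mice at P21 ranged from 78.1 to 96.0 normalized counts, below the 99.3 to 115.4 of the WT mice. At P70 its KO values of 95.1 to 125.5 overlapped the WT values of 101.3 to 141.5. Reads outside the deleted exon are included in these values, so they do not check the deletion itself. None of the 20 markers of neurons, astrocytes, oligodendrocytes and microglia was at 0 in any mouse. The 2 replicate 5 mice at P70, 1 KO and 1 WT, stood apart from the other P70 mice in several IGF genes. Age calls of the members and their correlations with each other and with marker sums are given with and without these mice. So are the ranges of the marker sums that they changed. Values for the genes most like a member are over all 20 mice.

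The gene that changed with age, Igfbp3, and the gene with the smallest p in a KO against WT comparison, Igf2bp3, are shown by the 250 bases before their RefSeq start, together with Igfbp2 and Igf2, whose levels moved together among the mice. Promoters of all 10 members were matched in the RefSeq table for GRCm38.p6, and Igf2 and Igfbp2 have more than 1 each. The Igf2 window nearest the 3′ end of the gene and the first Igfbp2 window are printed. Capitals mark matches on either strand to any of 4 motifs, searched in 32851 such promoters. The E-box, CACGTG, occurred in 6.02% of them. The TATA box, TATAAA, occurred in 12.4%. The CCAAT box, named by its letters, occurred in 33.8%. The GC box, GGGCGG, occurred in 32.7%. No motif overlaps another in its letters. The sequences, from 5′ to 3′ on the strand of the gene, lie at chr11:7213924-7214173 on the minus strand for Igfbp3, chr6:49214955-49215204 on the minus strand for Igf2bp3, chr1:72824230-72824479 on the plus strand for Igfbp2, and chr7:142657497-142657746 on the minus strand for Igf2.
Igfbp3: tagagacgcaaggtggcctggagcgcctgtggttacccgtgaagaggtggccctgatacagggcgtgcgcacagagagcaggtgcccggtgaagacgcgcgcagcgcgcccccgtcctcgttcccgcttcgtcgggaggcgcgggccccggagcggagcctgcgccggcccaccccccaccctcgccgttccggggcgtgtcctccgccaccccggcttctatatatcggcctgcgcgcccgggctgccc
Igf2bp3: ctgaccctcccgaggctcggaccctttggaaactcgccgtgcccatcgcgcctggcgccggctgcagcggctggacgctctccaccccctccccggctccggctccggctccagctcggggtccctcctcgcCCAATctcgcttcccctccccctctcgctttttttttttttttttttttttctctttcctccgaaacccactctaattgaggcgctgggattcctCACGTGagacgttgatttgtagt
Igfbp2: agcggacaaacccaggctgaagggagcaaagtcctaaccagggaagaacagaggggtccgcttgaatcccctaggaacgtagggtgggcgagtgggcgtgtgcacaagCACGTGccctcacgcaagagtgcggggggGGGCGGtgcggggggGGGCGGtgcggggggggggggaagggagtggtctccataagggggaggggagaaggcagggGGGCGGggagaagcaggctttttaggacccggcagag
Igf2: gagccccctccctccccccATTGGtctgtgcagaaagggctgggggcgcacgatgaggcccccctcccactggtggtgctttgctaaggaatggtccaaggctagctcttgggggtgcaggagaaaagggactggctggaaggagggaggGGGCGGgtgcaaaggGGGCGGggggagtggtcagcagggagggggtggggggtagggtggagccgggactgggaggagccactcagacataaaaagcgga
The Igfbp3 window held none of the 4 motifs. The Igf2bp3 window held 1 E-box and 1 CCAAT box. The printed Igfbp2 window held 1 E-box and 3 GC boxes, while the other, at chr1:72825137-72825386, held none of the motifs, and the printed Igf2 window held 1 CCAAT box and 2 GC boxes. Of the 3 Igf2 windows that are not printed, 1 held 1 GC box and the others none of the motifs.

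Per kilobase of the principal transcript, the brain levels of the 10 genes spanned a wide range. In WT mice at P21, Igfbp2 stood at 761 ± 131 normalized counts per kilobase (SD, n = 5), Igfbp5 at 736 ± 80.1 and Igf2 at 733 ± 70.2, and these levels did not differ beyond their spread by this length. By all annotated exon bases they were 539, 736 and 508. Igfbp4 followed at 414 ± 35.9 and Igfbp3 at 356 ± 57.0, and their SD ranges overlapped. Igf1r at 183 ± 27.4, Igf2r at 177 ± 27.9 and Igf1 at 174 ± 31.9 came next and did not differ beyond their spread by this length. The annotated exons of Igf1 cover 9904 bases against 1673 in the principal transcript, and by all exon bases it was at 29.4, beside 124 for Igf1r and 169 for Igf2r. The mRNA-binding proteins came last, with Igf2bp3 at 16.5 ± 1.33 and Igf2bp2 at 11.4 ± 2.33. The same 3 genes led in the other groups. At P70 Igfbp5 was first, Igfbp2 second and Igf2 last of the 3 in both genotypes, whichever length was used, while at P21 Igfbp2 was first by the principal transcript and Igfbp5 by all annotated exon bases. Igfbp3 went from place 5 to place 7 with age in both genotypes, with 165 ± 10.9 per kilobase in WT mice and 152 ± 20.3 in KO mice at P70.

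**Figure D1:**
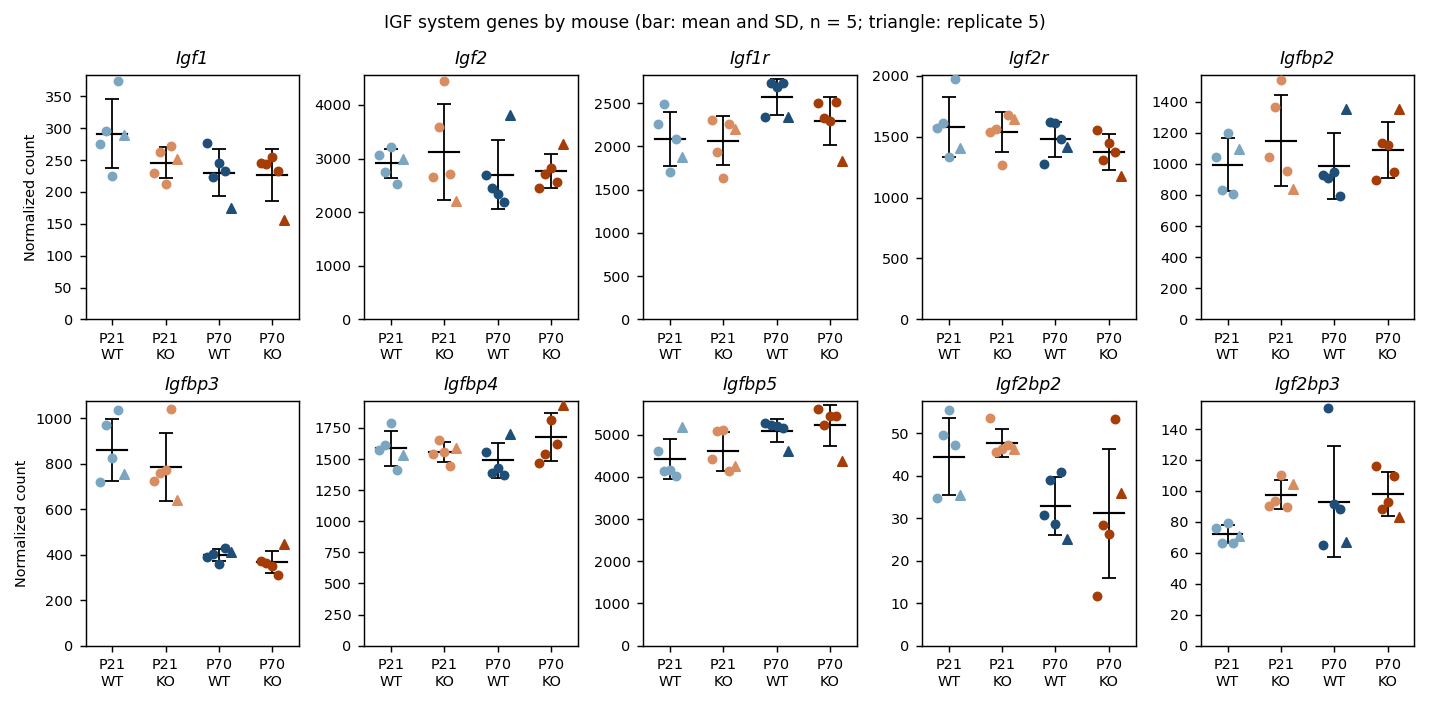
Normalized counts of the 10 IGF genes in each mouse, by age and genotype. Each point is 1 mouse, the triangle is replicate 5, and the black lines are the group mean and SD over 5 mice. Igfbp3 at P70 lies below every P21 mouse, and Igf2bp3 at P21 is higher in all 5 KO mice than in any WT mouse.

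With age, Igfbp3 was 2.13-fold lower at P70 in WT mice and 2.12-fold lower in KO mice, and it was the only member past the adjusted threshold (adjusted p under 0.05, limma across all genes). IGFBP3 is a main carrier of IGFs in blood and is also secreted by cells in tissues. The gene lies on chromosome 11 from 7206086 to 7213923 on the minus strand of GRCm38. In WT mice at P21 its normalized counts were 717.8, 970.7, 824.7, 1036.8 and 754.0 in replicates 1 to 5. At P70 the WT counts were 392.1, 402.4, 359.6, 430.6 and 413.0. No P70 mouse reached the lowest P21 mouse, and the P70 mice differed far less among themselves. The mean went from 861 ± 138 (SD, n = 5) to 399.5 ± 26.5, a log2 difference of -1.09 (SE 0.106, 95% interval -1.32 to -0.87) on the log2(normalized count + 1) scale, with an adjusted p of 4.33e-05 in limma. In KO mice the P21 counts were 722.8, 758.6, 770.9, 1040.2 and 642.4, and the P70 counts 370.7, 363.9, 352.3, 311.4 and 446.9. The KO means were 787 ± 150.2 and 369 ± 49.2, a log2 difference of -1.08 (SE 0.129, 95% interval -1.36 to -0.80), with an adjusted p of 0.000389 in limma. The ages did not overlap in either genotype. The age change differed between the genotypes by 0.01 (95% interval -0.35 to 0.37; unadjusted limma p 0.945). In the same fits 4.7% of all genes were called lower and 4.62% higher at P70 in WT mice, and 4.53% and 3.78% in KO mice.

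The labels give no batch, so a batch that followed age, like the lower depth at P70, cannot be told apart from it. In bulk tissue, fewer cells that express a gene and less of its RNA per cell cannot be told apart. Markers of other cell types also changed with age, beside the shares of all genes just given. All 5 oligodendrocyte markers fell in both genotypes, and their summed level ranged from 357835 to 403869 in WT mice at P21 and from 151158 to 172087 at P70. In KO mice it ranged from 358112 to 528440 at P21 and from 135809 to 180187 at P70. Of 10 brain endothelial markers, 3 fell in WT mice (Kdr, Slco1a4 and Itm2a) and 2 in KO mice, and none rose. Their sum ranged from 7468 to 8502 in WT mice at P21 and from 5098 to 7307 at P70, while the KO ranges of 6308 to 8850 and 6217 to 7148 overlapped. Of 8 mural cell markers, 1 fell in WT mice and 2 in KO mice. Their WT sums of 5605 to 6381 at P21 and 4729 to 6354 at P70 overlapped. In KO mice the sums of 5650 to 6736 and 4964 to 6803 also overlapped. Without replicate 5 the P70 ranges were 4729 to 5644 in WT mice and 4964 to 5514 in KO mice. The latter lay below every P21 KO mouse. Of 14 choroid plexus markers, 2 rose in WT mice and none in KO mice, with 13 positive in each and medians of 0.37 and 0.24. Of 16 leptomeningeal markers, 4 fell and 1 rose in WT mice and 3 fell in KO mice, among them the collagen genes Col1a1, Col1a2 and Col3a1 in both genotypes. Most of that list went the other way, with 11 of 16 differences positive in WT and 10 in KO mice and medians of 0.13 in both. Of 10 immature neuron markers, which include Igfbpl1, 4 fell in WT mice, and 3 fell and 1 rose in KO mice. Their sum ranged from 19994 to 22288 in WT mice at P21 and from 17721 to 17995 at P70, and from 19989 to 21438 and 16848 to 19286 in KO mice, with no overlap between ages in either genotype. Tubb3 makes up 56.7% of that sum, and without it the WT ranges were 8893 to 10152 and 6266 to 8279, and the KO ranges 8514 to 9968 and 5669 to 8102. Without replicate 5 the KO sum at P70 ended at 17547. The P70 ranges without Tubb3 then started at 7927 in WT and 7519 in KO mice. No marker of these lists was at 0 in any mouse. The part of these cell types in the change of Igfbp3 was not tested.

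The other 9 members did not pass the adjusted threshold with age. Igf1r, the receptor for both ligands, averaged 2084 ± 313 at P21 and 2568 ± 206 at P70 in WT mice (SD, n = 5), a log2 difference of 0.31 with an unadjusted p of 0.00797 and an adjusted p of 0.0693 in limma. Its difference in KO mice was 0.15 (adjusted p 0.469, limma), and the groups overlapped in both genotypes. Igfbp5, which binds IGFs in the extracellular matrix, gave 0.21 in WT mice (unadjusted p 0.0171, adjusted p 0.109) and 0.18 in KO mice (unadjusted p 0.0581, adjusted p 0.239). Igf1 gave -0.34 in WT mice (unadjusted p 0.0356, adjusted p 0.168) and -0.13 in KO mice (adjusted p 0.630). Igf2bp2, an mRNA-binding protein of low level in these brains, gave -0.42 in WT mice (unadjusted p 0.0517, adjusted p 0.208) and -0.74 in KO mice (unadjusted p 0.0320, adjusted p 0.171), where its P70 counts ran from 11.8 to 53.4. Igf2, Igf2r, Igfbp2, Igfbp4 and Igf2bp3 had log2 differences of -0.16 to 0.30 over both genotypes and adjusted p values of 0.349 or more. The median difference of the 10 members was -0.09 in both genotypes, beside 0.00 in WT mice and -0.01 in KO mice over all genes tested.

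Which members passed beside Igfbp3, and how many genes were called, depended on single mice. Without replicate 5 of the P70 WT group, 4 members passed the threshold in WT mice: Igfbp3, Igf1r at 0.34 (adjusted p 0.0314), Igfbp5 at 0.24 (adjusted p 0.0278) and Igf2 at -0.26 (adjusted p 0.0364). The number of all genes called rose from 1643 to 3000 in that fit. Without replicate 5 of the P70 KO group, Igfbp5 at 0.24 (adjusted p 0.0189) passed beside Igfbp3, and the genes called rose from 1467 to 3759. Without replicate 2 of the P21 WT group Igf1r passed at 0.38 (adjusted p 0.0342), and without replicate 5 of that group Igfbp5 passed at 0.27 (adjusted p 0.0382). Leaving out replicate 4 of the P21 WT group gave 912 genes in WT mice, and leaving out replicate 1, 2 or 4 of the P21 KO group gave 943, 957 or 896 in KO mice. Igfbp3 stayed past the threshold in all of these fits.

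**Figure D2:**
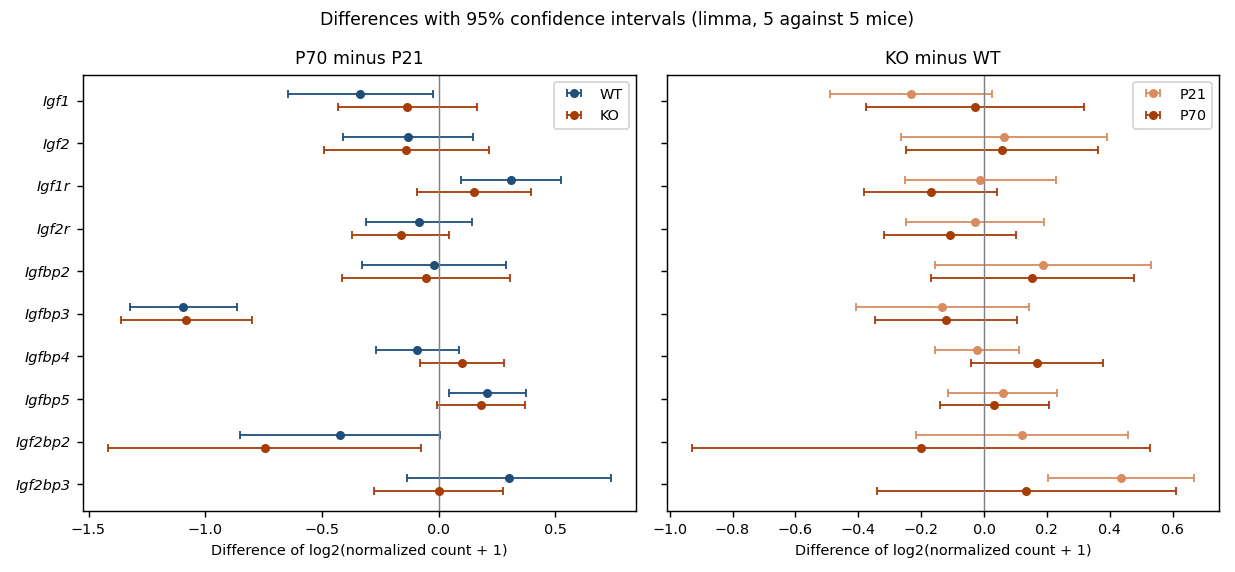
Differences of log2(normalized count + 1) with 95% confidence intervals for each member, between ages on the left and between genotypes on the right. Only the Igfbp3 intervals between ages, centred at -1.09 and -1.08, lie farther than 0.5 from 0, and Igf2bp3 at P21 is the only member whose KO against WT interval leaves out 0.

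Between KO and WT mice no member passed the adjusted threshold at either age, and neither did any other gene. At P21 0 of 17610 genes were called by limma (0%), the smallest adjusted p was 0.181, and 429 had an unadjusted p under 0.05, 1.49% of all genes higher and 0.948% lower in KO mice. At P70 0 of 17613 genes were called by limma (0%), and 199 had an unadjusted p under 0.05, 0.59% higher and 0.539% lower. Of the 10 members, 1 was under 0.05 unadjusted at P21 and none at P70. The median difference of the members was 0.02 at P21 and 0.00 at P70, and in each comparison 5 members were positive and 5 negative.

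That 1 member was Igf2bp3, an RNA-binding protein of embryonic tissues that binds Igf2 mRNA, on chromosome 6 from 49085223 to 49214957 on the minus strand. Its P21 counts were 90.4, 93.3, 110.6, 89.3 and 104.7 in the KO mice. The WT mice had 76.2, 66.6, 79.4, 66.5 and 70.7. Every KO mouse was above every WT mouse, as was the case for 0.256% of all genes at P21 and 0.0965% at P70. The means were 97.7 ± 9.48 and 71.9 ± 5.80 (SD, n = 5), and the log2 difference was 0.44 (SE 0.108, 95% interval 0.20 to 0.67), with an exact two-sided permutation p of 0.00794, the smallest that 5 against 5 mice can give. Its unadjusted limma p was 0.00140, the ninth smallest of all genes tested, and its adjusted p was 1.00, so the difference does not hold across all genes. The size ranged from 0.39 to 0.47 over all 18 alternative settings, and the adjusted p from 0.988 to 1.00. At P70 the KO counts were 115.8, 88.3, 93.1, 109.5 and 83.4 and the WT counts 65.2, 153.4, 91.5, 88.1 and 67.2, and the groups overlapped. The P70 difference was 0.13 (95% interval -0.34 to 0.61), and 0.33 without replicate 2 of the WT group, the mouse at 153.4. The difference between the ages was -0.30 (95% interval -0.81 to 0.21; unadjusted limma p 0.233). Igf2bp3 overlaps Malsu1 on the opposite strand, and with strand use in the counting not given, their reads may be shared. Malsu1 gave 0.10 at P21 (unadjusted p 0.482).

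Among the ligands, Igf1 was 246.0 ± 24.7 in KO mice and 292 ± 53.4 in WT mice at P21 (SD, n = 5), with overlapping groups. Its log2 difference of -0.23 had a 95% interval of -0.49 to 0.03 and an unadjusted limma p of 0.0744. At P70 the Igf1 means were 227 ± 40.3 and 230.5 ± 37.2, a difference of -0.03 (95% interval -0.38 to 0.32). Igf2 was 3123 ± 892 in KO mice and 2908 ± 279 in WT mice at P21, and 2764 ± 317 and 2699 ± 648 at P70, with differences of 0.06 at both ages. The KO mice at P21 were the most spread, from 2208.7 to 4447.0, and held both the lowest and the highest Igf2 count at that age. Igf2 shares bases with Igf2os on the opposite strand, which averaged 13.5 normalized counts in WT mice at P21 and 13.1 at P70.

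The receptors and the remaining binding proteins did not differ beyond their spread. Igf1r in KO mice at P70 was 2292 ± 275 against 2568 ± 206 in WT mice (SD, n = 5), a log2 difference of -0.17 (95% interval -0.38 to 0.04; unadjusted limma p 0.107). Igf2r, the clearance receptor for IGF2, gave -0.03 at P21 and -0.11 at P70. Igfbp4, an inhibitory binding protein, was 1676 ± 194 in KO and 1489 ± 140 in WT mice at P70, a difference of 0.17 (95% interval -0.04 to 0.38; unadjusted limma p 0.105). Igfbp2 gave 0.19 at P21 (95% interval -0.16 to 0.53) and 0.15 at P70 (95% interval -0.17 to 0.48). Igfbp3 gave -0.13 and -0.12, and Igfbp5 0.06 and 0.03. Igf2bp2 gave 0.12 at P21 and -0.20 at P70, with an interval of -0.93 to 0.53 at P70. The age by genotype term called 0 of 17637 genes in limma (0%), with 0.652% higher and 1.03% lower at an unadjusted p under 0.05, and none of the 10 members among them.

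Within groups, the members did not vary independently. Each mouse was taken as its deviation from its group mean on the log2 scale, over all 20 mice, which share their normalization. Igf2 and Igfbp2, a binding protein found in choroid plexus and cerebrospinal fluid, had a Pearson r of 0.941 and a Spearman rho of 0.923, and r was 0.919 without the 2 mice farthest from the median. Igfbp2 was also the gene most like Igf2 among 17636 genes searched, followed by C1qa and C1qb at 0.922 and 0.909. In the reverse search the gene most like Igfbp2 was Prdx3 at 0.941, ahead of Igf2, and Metrn followed at 0.933. Replicate 3 of the P21 KO group was highest in both genes, at 4447.0 for Igf2 and 1535.4 for Igfbp2. Igf1r ran the other way, with r of -0.791 (rho -0.723) to Igfbp2 and -0.732 (rho -0.665) to Igf2. The receptors moved together, with r of 0.724 (rho 0.611) between Igf1r and Igf2r. Without the P70 replicate 5 mice these were -0.777, -0.735 and 0.673, and r between Igf2 and Igfbp2 was 0.918. The genes most like Igf1r were Syne1 at 0.943, Ppip5k1 at 0.940 and Atp2b3 at 0.924. Igfbp3 had an r of 0.0752 to Igf2 and -0.0548 to Igfbp2 (-0.0847 and -0.280 without the P70 replicate 5 mice) and of -0.564 to Igfbp5 (-0.460 without them). Without these mice its r was 0.423 to Igf1 and -0.409 to Igfbp4, where it was -0.00771 and -0.0682 with them. Over all 20 mice the gene most like Igfbp3 was Arhgap24 at 0.832. These are descriptions over mice, with no test.

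The summed level of the 16 leptomeningeal markers had an r of 0.800 with Igf2 and 0.671 with Igfbp2 over the 20 mice, and of 0.923 and 0.755 without the P70 replicate 5 mice. In the P21 KO group this sum ran from 5770 to 8913, and its highest mouse was the one highest in Igf2. It ran from 7017 to 7342 in the P21 WT group, from 6140 to 6876 in the P70 KO group and from 5705 to 6897 in the P70 WT group. The 14 choroid plexus markers had an r of 0.687 with Igf2 and 0.702 with Igfbp2, although Ttr alone makes up 87.6% of their sum. Without Ttr, a step added after these values were seen, r was 0.585 and 0.579. Without the P70 replicate 5 mice r was 0.555 and 0.594 with Ttr and 0.473 and 0.492 without it. The sum ranged from 14991 to 27867 in P21 KO, 13177 to 19201 in P21 WT, 16055 to 28199 in P70 KO and 13211 to 28308 in P70 WT mice, and the upper ends at P70 were 27342 in KO and 22721 in WT mice without replicate 5. Without Ttr these ranges were 1939.6 to 2833, 1650.4 to 2170.3, 2211 to 3352 and 2091 to 3479, the last of which ended at 2888 without replicate 5. All 14 choroid plexus markers had a positive KO against WT difference at both ages, and 0 were called. At an unadjusted limma p under 0.05, 5 choroid plexus markers were higher at P21 and 0 at P70, beside 1.49% and 0.59% of all genes. Signs were also shared within other lists. All 10 brain endothelial markers were negative at P21 and positive at P70. All 5 oligodendrocyte markers were positive at P21 and negative at P70. Other sums also moved with Igf2 and Igfbp2. Oligodendrocyte markers had an r of 0.661 with Igf2 and 0.634 with Igfbp2, and of 0.443 and 0.444 without Mbp, their highest gene. Neuron markers had -0.637 and -0.581, and -0.693 and -0.722 without Snap25. Mural cell markers had 0.474 and 0.484, and 0.687 and 0.668 without Rgs5. Immature neuron markers had 0.143 and 0.174, and -0.646 and -0.728 without Tubb3. The 33 receptor signalling genes had -0.682 and -0.721. Astrocyte markers had 0.166 and 0.121, and 0.408 and 0.384 without Slc1a3. Microglia markers had 0.438 and 0.383, and brain endothelial markers -0.114 and -0.119. Without the P70 replicate 5 mice the whole lists gave 0.696 and 0.623 for oligodendrocytes, -0.465 and -0.413 for neurons, 0.0986 and 0.108 for mural cells, -0.0583 and -0.0711 for immature neurons and -0.529 and -0.617 for receptor signalling. The part of these tissues and cell types in the levels of Igf2 and Igfbp2 was not tested.

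**Figure D3:**
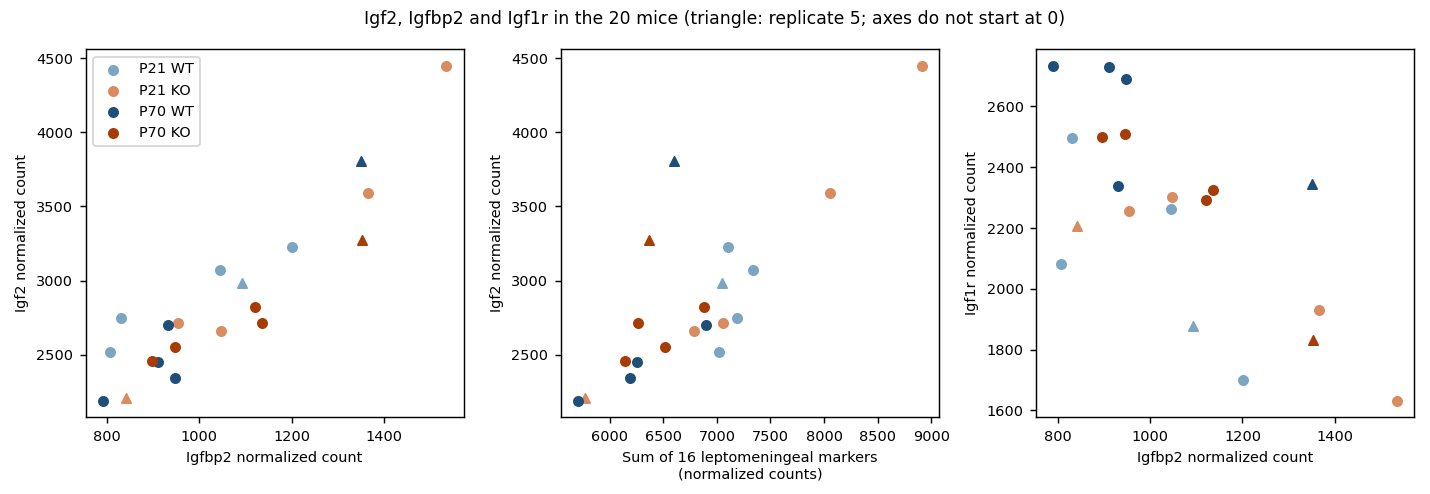
Igf2 against Igfbp2, Igf2 against the summed level of 16 leptomeningeal markers, and Igf1r against Igfbp2, in normalized counts. Each point is 1 of the 20 mice, coloured by group, with triangles for replicate 5. Igf2 rises with Igfbp2 (r = 0.941 on deviations from group means), and Igf1r is lower where Igfbp2 is higher (r = -0.791).

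Of 17 other genes of the IGF system, 12 were in the table and tested. With age in WT mice 2 rose and 3 fell, beside 4.62% and 4.7% of all genes, and in KO mice 1 rose and 2 fell, beside 3.78% and 4.53%. Igfbp6, a binding protein with a preference for IGF2, rose in both genotypes. Its WT counts were 309.5, 299.1, 382.1, 241.1 and 369.0 at P21 and 624.2, 553.0, 433.5, 493.9 and 716.7 at P70, with no overlap. The log2 difference was 0.81 in WT mice (SE 0.149, adjusted p 0.00449, limma) and 0.84 in KO mice (SE 0.109, adjusted p 0.000628, limma). Igfbp7, a low-affinity IGF binder of blood vessels, fell by 0.55 in WT mice (adjusted p 0.0287) and by 0.60 in KO mice (adjusted p 0.0205) on the log2 scale. The ages overlapped only through replicate 5 at P70, at 572.1 in WT and 594.7 in KO mice, while the other P70 mice were at 326.1 to 411.4 and no P21 mouse was below 526.7. The imprinted noncoding RNA H19, which neighbours Igf2 on chromosome 7, fell by 1.69 in WT mice (adjusted p 0.00314) and by 1.14 in KO mice (adjusted p 0.0498), from counts of 28.9 to 68.2 at P21 to 8.7 to 23.6 at P70 in WT mice. Igf2 itself, from the same imprinted cluster, had age differences of -0.13 and -0.14.

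Igfbpl1, a gene of immature neurons related to the binding proteins, fell in WT mice from 82.6, 65.4, 117.7, 114.7 and 112.5 to 36.3, 52.0, 46.6, 43.9 and 35.4, a log2 difference of -1.16 (adjusted p 0.00193, limma). In KO mice the difference was -0.45 (adjusted p 0.217). Insrr, the insulin receptor-related receptor, rose by 0.72 in WT mice (adjusted p 0.0275) and had a difference of -0.11 in KO mice (adjusted p 0.849). The age changes of these genes differed between genotypes by 0.72 for Igfbpl1 (unadjusted p 0.0193) and -0.83 for Insrr (unadjusted p 0.0134), and neither difference passed the adjusted threshold (adjusted p 1.00 for both, limma). At P21 both were under 0.05 unadjusted in KO against WT, Igfbpl1 at -0.45 (p 0.0431) and Insrr at 0.51 (p 0.0249), with adjusted limma p values of 1.00 and overlapping groups.

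Downstream of the receptors, 33 genes from the insulin receptor substrates to mTOR, FOXO and ERK kinases were tested. With age 2 rose and 1 fell in WT mice, and 1 rose and 1 fell in KO mice, and none was called in KO against WT at either age. These counts are near the shares over all genes, 4.62% higher and 4.7% lower in WT mice and 3.78% and 4.53% in KO mice. Their median age difference was 0.04 in WT and -0.01 in KO mice. Grb14, an adaptor that inhibits insulin and IGF receptor signalling, fell in both genotypes. Its WT counts were 819.2, 869.3, 1075.6, 781.7 and 878.0 at P21 and 484.0, 415.4, 504.1, 542.1 and 579.9 at P70. The log2 difference was -0.81 in WT mice (SE 0.106, adjusted p 0.000459, limma) and -0.79 in KO mice (SE 0.135, adjusted p 0.00358, limma), and no P70 mouse reached a P21 mouse of its genotype. Irs2, a docking protein for activated receptors, rose in WT mice by 0.41 (adjusted p 0.0444) and had a difference of 0.26 in KO mice (adjusted p 0.156). Replicate 5 of the P70 KO group was at 2248.8, with the others of that group at 2937.4 to 3441.5. The P21 KO mice were at 2391.5 to 2601.8. Replicate 5 was also the lowest P70 WT mouse, at 2656.4. Eif4ebp2, a translation repressor controlled by mTOR, rose by 0.26 in WT mice (adjusted p 0.0416) and had a difference of 0.17 in KO mice (adjusted p 0.0742). Akt2 rose by 0.24 in KO mice (adjusted p 0.0470) and had a difference of 0.15 in WT mice (adjusted p 0.274). These differences between genotypes were not past the threshold in the interaction test (adjusted p 1.00 for each, limma).

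**Figure D4:**
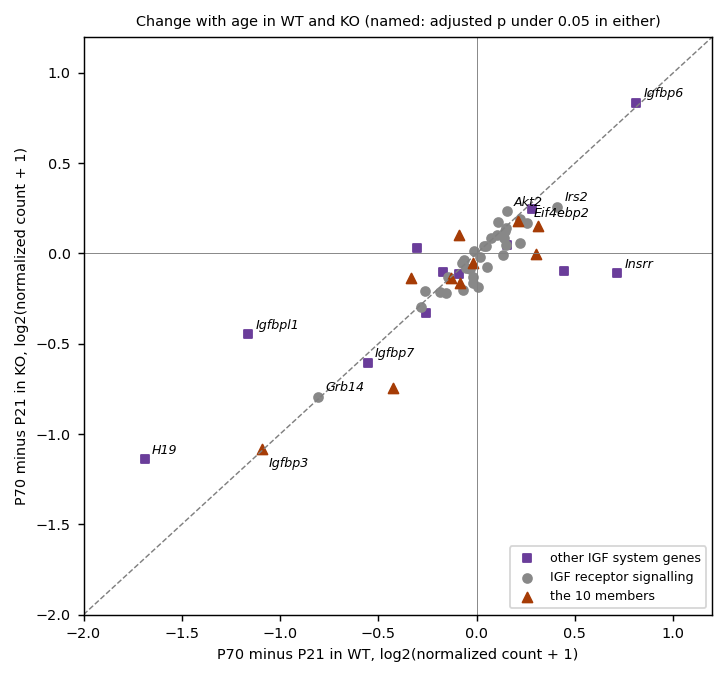
P70 minus P21 difference of log2(normalized count + 1) in WT mice (x axis) and KO mice (y axis), for the 10 members (triangles), 12 other IGF system genes (squares) and 33 receptor signalling genes (circles). The dashed line marks equal change. Igfbp3, Igfbp6, Igfbp7, H19 and Grb14 were called in both genotypes, and Igfbpl1 and Insrr lie farthest from the line among those named.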

How the data were processed

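Whole-brain RNA was prepared per the labels with a TruSeq RNA v2 kit. Per the submitters' processing notes and the study's methods, the authors quantified transcripts with Salmon 1.1.0 (GRCm38, corrected for GC bias). The authors summed these to genes with tximport, normalized them with DESeq2 1.26.0 in R 3.6.2 and deposited the signal values (normalized counts) of 19463 genes. These versions are those in the notes, and for R and DESeq2 the methods of the authors name others. Strand use was not given in the sources used here. The factors of that normalization differ by gene, so whole reads could not be recovered. Depth was approximated from the spacing of low values, and it can be given only to that precision.

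Symbols were matched for 19447 genes, with coordinates from GENCODE M21. Each comparison was fitted on its own 10 mice, and the interaction on all 20, with limma 3.58.1 in R 4.3.3 with its trend option, on log2(value + 1). Genes averaging under 10 were left out, which kept 17610 to 17641. P-values were two-sided and Benjamini-Hochberg adjusted over all genes, with a threshold of 0.05. The scripts were tested on simulated data. A fold change on this scale understates the change of low genes. No label gives a batch or date.

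The members, gene lists and tests were chosen with earlier results of these data known. Genes named in the text are Katnal2, the members, up to 3 genes of each list with the smallest p with age in WT mice, and the 3 genes most like each member, with a few more singled out after their values were seen: Igfbp7 and Insrr, the remaining called genes of their list, Akt2, the overlapping Malsu1 and Igf2os, and Ttr and Tubb3, the highest genes of their lists. Alternatives were another pseudocount, filters and scalings, no trend, 1 fit of all groups, a replicate block, and each mouse or both P70 replicate 5 mice left out. Same-numbered mice were not taken as pairs, since no label ties them and not every pair's correlation was over 0.1.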

Additional observations from a re-analysis of the deposited data

Results flagged for a closer look

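Among 40 gene and group combinations (10 members in 4 groups), Dixon's gap test at its 95% critical value of 0.71 for 5 mice picked out 4, where chance alone picks about 1 in 20. Igf1 in the P70 KO group had its lowest mouse, replicate 5, at 155.8 normalized counts, with the others at 233.4 to 254.8. Igfbp2 in the P70 WT group had its highest mouse, replicate 5, at 1349.9, with the others at 790.5 to 947.1. Igfbp5 in the P70 WT group had its lowest mouse, again replicate 5, at 4605.8, with the others at 5162.2 to 5270.1. Igf2bp2 in the P21 KO group had its highest mouse, replicate 1, at 53.5, with the others at 45.5 to 47.1.

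The first 3 of these are the 2 replicate 5 mice at P70, which deviated from their group means together, with a correlation of 0.705 across all genes where the other same-numbered P70 mice gave 0.0749 to 0.175. Both were low in Igf1 (155.8 and 174.2) and Igfbp5 (4377.9 and 4605.8) and high in Igf2 (3270.7 and 3808.7) and Igfbp2 (1352.9 and 1349.9). What sets these mice apart was not tested.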

How the results depend on the processing

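Of 802 alternative values of member differences, 752 kept their direction and side of the threshold, 10 passed the threshold that the reported value did not, none lost it, and 40 changed sign, all of them differences that were not past the threshold. Igfbp3 with age stayed past it in all 19 alternatives of each genotype, at -1.15 to -1.02 in WT (adjusted p 5.71e-06 to 0.000537) and -1.15 to -0.98 in KO mice (adjusted p 4.87e-06 to 0.00788), with limma throughout.

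Without both P70 replicate 5 mice, the calls with age were 3000 in WT (4 members) and 3759 in KO mice (2 members), and 1 gene was called in KO against WT at P70. Leaving out 1 mouse gave 912 to 3000 genes and 1 to 4 members in WT, 896 to 3759 genes and 1 to 2 members in KO, and 0 to 1 genes in KO against WT at P21. The replicate block changed the calls with age in KO mice from 1467 to 913 and in WT mice from 1643 to 1265, kept Igfbp3 (adjusted p 0.00788 and 0.000292), and called 0 genes between genotypes. At an unadjusted p under 0.05 it took the KO against WT counts from 429 to 732 genes and from 1 to 2 members at P21, and from 199 to 610 genes and from 0 to 3 members at P70. The numbers were not taken as pairs, since not every correlation of same-numbered KO and WT mice was over 0.1 (-0.00913 to 0.26 at P21; 0.0749 to 0.705 at P70). As a hint from the data only, 3 of 5 numbers at P21 and 4 of 5 at P70 matched best by number. With the block these members were Igf2bp3 and Igf1 at P21 and Igf1r, Igfbp2 and Igfbp4 at P70, all with adjusted p values of 1.00 in limma. Scaling, filter, pseudocount, trend and the shared fit kept each count of calls within 1.5 times.

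Sign changes without both P70 replicate 5 mice were Igf1 between genotypes at P70 (0.00265), Igf2bp3 with age in KO mice (0.0541) and the Igfbp3 interaction (-0.0466). Igf2bp3 with age in KO mice also became 0.00014 with median-of-ratios rescaling and 0.0226 with quantile normalization. The ranges with 1 mouse left out that crossed 0 were, in KO against WT at P21, -0.0751 to 0.177 for Igf2, -0.0820 to 0.0702 for Igf1r, -0.0863 to 0.0547 for Igf2r and -0.0635 to 0.0218 for Igfbp4. At P70 they were -0.126 to 0.0992 for Igf1, -0.0118 to 0.188 for Igf2, -0.00377 to 0.0944 for Igfbp5 and -0.428 to 0.0943 for Igf2bp2. With age they were -0.140 to 0.0533 for Igfbp2 in WT, and -0.252 to 0.000102 for Igf2, -0.157 to 0.0596 for Igfbp2 and -0.0629 to 0.0541 for Igf2bp3 in KO mice. For the Igfbp3 interaction it was -0.0592 to 0.117. A minimum mean of 50 left no value for Igf2bp2. Depth limits the genes of low count, such as Igf2bp2, whose lowest mouse was at 11.8 normalized counts.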
